A study of Mus musculus with 60 samples.

Results

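The genes described here are 39 mouse genes of the interferon response and of antigen presentation by MHC class I. They were listed by symbol, and each was represented by the one probe, among those whose annotation names that gene alone, with values on the most arrays. Of the 39 genes, 34 had such a probe and 29 of these had enough values to be tested, among 14442 genes with a probe and 10074 genes tested in the whole series. No probe was found for Oas2, Bst2, H2-D1, Xaf1 and Ifi44. The probes of Stat2, Ifit3, Psmb10, Tapbp and H2-K1 had values from both dyes in fewer than 2 of 3 replicates of at least one group, so they have levels but no test. The filter counts missing values and sets no floor on the signal.

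The study measured RNA of primary mouse hepatocytes with and without Met, the receptor of hepatocyte growth factor (HGF), before and during HGF treatment. The knockout (KO) cells came from mice labelled Alb-Cre +/-; Met Fl/Fl on a mixed 129SV/C57BL6 strain, in which Cre driven by the albumin promoter deletes Met in hepatocytes. The control (WT) cells came from C57BL mice, so strain and genotype changed together. The titles of all WT arrays read WT - Cre, and the labels of 6 WT arrays call them heterozygous for Cre recombinase. All mice were adult males of 9 to 10 weeks. Cultures were set up in triplicate from 3 mice, plated for 4 h with 10% serum, moved to serum-free medium and, the next day, left untreated or treated with HGF, with samples taken after 0.5 h, 2 h, 12 h and 24 h. This gave 10 groups of 3 replicates. The protocol states 50 ng/ml of HGF and another label states 50 nM. The treatment field of the 12 h samples reads 0.5 h, and the titles were used for time. Untreated cultures matched in time to the later samples were not analysed here, so the effects of HGF and of time in culture cannot be told apart.

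Interferons are cytokines made when cells sense viral nucleic acid. They bind receptors at the cell surface and, through JAK kinases, activate STAT proteins, which together with IRF9 or alone bind interferon-stimulated response elements (ISRE) and gamma-activated sites (GAS) in promoters. The induced genes encode antiviral proteins, GTPases that attack vacuoles of intracellular parasites, and the immunoproteasome, peptide transporters and class I chains that display peptides to cytotoxic T cells. In liver, hepatocytes and the Kupffer, endothelial and lymphoid cells around them can all express these genes.

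To show the elements that the gene family shares, the 250 bases before each RefSeq transcription start (GRCm38.p6) were searched on both strands for an ISRE-like motif (GAAA, any NN, then GAAA) and for a GAS-like motif (TTC, any NNN, then GAA). The promoter table held 31 of the 39 genes and lacked Mx1, Mx2, Oas2, Usp18, Iigp1, Tap2, Rtp4 and Parp14. The ISRE-like motif was present in 13 of the 31 (41.9%), against 936 of 27025 genes in the table (3.46%). The GAS-like motif was present in 6 of the 31 (19.4%), against 8.13% of all genes in the table. A match is a description of the letters and not a site of binding. The windows below run 5′ to 3′ on the gene's strand, and capitals mark the ISRE-like matches, read as that motif or as its reverse complement (TTTC, any NN, then TTTC). Overlapping matches run together.
Isg15: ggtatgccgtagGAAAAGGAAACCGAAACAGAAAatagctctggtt
Ifit1: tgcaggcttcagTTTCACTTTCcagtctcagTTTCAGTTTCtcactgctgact
Ifit3: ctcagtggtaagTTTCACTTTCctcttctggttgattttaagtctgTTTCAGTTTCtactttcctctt
Rsad2: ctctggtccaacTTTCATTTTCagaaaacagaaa
Oas1a: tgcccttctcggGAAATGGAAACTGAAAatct
Igtp: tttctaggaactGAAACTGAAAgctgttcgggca
Irgm1: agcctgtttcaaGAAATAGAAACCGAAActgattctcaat
Gbp2: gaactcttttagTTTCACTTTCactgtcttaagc
These 8 were chosen by name from the genes that hold an ISRE-like match. They include Ifit1, Isg15, Rsad2 and Igtp, which had the largest falls at 12 h. Not shown are Ifit2 and Ifi47, which had an entry without such a match, and Rtp4 and Iigp1, which had no entry. B2m, Bst2, Cxcl10, Gbp3 and Stat2 also hold an ISRE-like match and are not shown. Of these, Cxcl10 fell at 12 h, B2m and Gbp3 did not pass the test, and Bst2 and Stat2 were not tested. The Isg15 window lies at chr4:156200863-156200908 on the minus strand and holds 3 overlapping matches between 90 and 45 bases before the start. The windows of Ifit1 (chr19:34640773-34640825 on the plus strand) and its neighbour Ifit3 (chr19:34583361-34583428 on the plus strand) each hold 2 separate matches. Oas1a (chr5:120907526-120907557 on the minus strand) and Irgm1 (chr11:48871423-48871462 on the minus strand) hold 2 overlapping matches close to the start, while Igtp (chr11:58199510-58199543 on the plus strand), Gbp2 (chr3:142620592-142620625 on the plus strand) and Rsad2 (chr12:26456551-26456584 on the minus strand) hold 1 match each.

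Values are deposited log2 ratios of each sample against a reference RNA pooled from WT hepatocytes, so they describe a gene relative to that reference and cannot be compared as levels between genes. Each replicate was hybridised in both dye orientations, and the mean of both was used after centring each array on its median. The numerator of the ratio is not stated. Sample over reference was taken as the likely direction because Cyp2e1, a cytochrome known to be lost in cultured hepatocytes, read -2.16 at 24 h against untreated, with -1.98 on the Cy5 and -2.33 on the Cy3 arrays. If both dyes ran the other way, every change below would have the opposite sign. Over all probes the change at 12 h on the Cy5 arrays and that on the Cy3 arrays correlated at r = 0.0077. With the sign of all Cy3 arrays turned instead, 0 of the 29 genes were lower at 12 or 24 h, and 6 were higher at 12 h in WT alone.

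Arrays had 17356 to 21511 values each, and over all probes the values of the dyes correlated below 0 in 23 of 30 replicates (r from -0.68 to 0.19). The Cy5 array of untreated WT replicate 3 was in all 19 same-dye pairs of arrays that correlated below -0.3, so its direction is not settled. With its sign turned, 23 genes were lower at 12 h, 13 were lower at 24 h and 2 differed by genotype over all times, and the median KO-minus-WT difference in change was 0.27 at 12 h and 0.24 at 24 h. The Cy3 array of untreated WT replicate 2 correlated at 0.63 to 0.66 with the Cy3 arrays of WT at 0.5 h, and at -0.06 to 0.23 with the other untreated WT Cy3 arrays. The array numbers in the labels form 4 runs: all 12 h arrays and most untreated and 24 h arrays lie in one, and all 0.5 h and nearly all 2 h arrays in another. The Met probe did not pass the test between genotypes (KO minus WT 0.08, SE 0.08, adjusted p = 0.648, limma). Where that probe lies relative to the deleted exon is unknown here, so it does not check the labels.

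At 12 h of HGF most of the interferon-response genes were lower than in untreated cultures. With the genotypes averaged, 23 of 29 genes fell (limma, adjusted p under 0.05) and 0 rose, where 4.01% of all probes fell and 2.69% rose. The median change of the 29 genes was -0.86 on the log2 scale, against 0.01 over all probes. The largest falls were those of Ifit1 (5.17-fold), Isg15 (3.22-fold), Rsad2 (3.02-fold) and Igtp (2.76-fold). All 6 replicates at 12 h lay below all untreated replicates for 12 of the 29 genes, where this held for 2.14% of all probes. The change was below 0 on both dyes for 26 of the 29.

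The median over the 29 genes, replicate by replicate, was -0.88, -0.46 and -0.37 in untreated WT and -0.69, -0.62 and -0.14 in untreated KO cultures. At 12 h it was -1.53, -1.48 and -1.42 in WT and -1.33, -1.72 and -1.14 in KO. Every replicate at 12 h was thus below every untreated replicate. At 24 h the median was -1.30, -0.92 and -0.83 in WT and -1.37, -0.91 and -0.47 in KO, and these overlapped with the untreated values. The p-values rest on a spread pooled over all 10 groups, whose residual SD ran from 0.16 in WT at 2 h to 0.43 in KO at 24 h. Where the replicates of a group lie in several runs of arrays, that spread holds run as well as culture. Untreated replicates 3 of WT (-0.37) and KO (-0.14) lie outside the run that holds all 12 h arrays. The 3 replicates per group limit the precision. In bulk RNA, fewer cells of a type and less RNA per cell cannot be told apart.

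The count at 12 h was 15 without untreated KO replicate 3 and 15 without KO 12 h replicate 2. It was 11 without untreated WT replicates 2 and 3 and KO 24 h replicate 2, which held the arrays that correlated unusually or had extreme Cy3 values, and 9 within the largest run of arrays. Of the calls at 12 h, those of Irf7, Tap2, Cxcl10 and Usp18 were lost when any one of 10, 9, 9 and 7 replicates was left out, those of Oas1a and Psmb9 with any one of 3, and that of Irf9 with either of 2 (untreated KO replicate 3 or KO 12 h replicate 2). Rtp4 was lost without untreated KO replicate 3, and Parp14 and Trim25 without KO 12 h replicate 2. Ifih1, Ifit1, Mx2, Oasl2, Isg15, Igtp, Irgm1 and Ifi35 passed the test at 12 h in every setting tried other than the turned Cy3 sign.

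**Figure D1:**
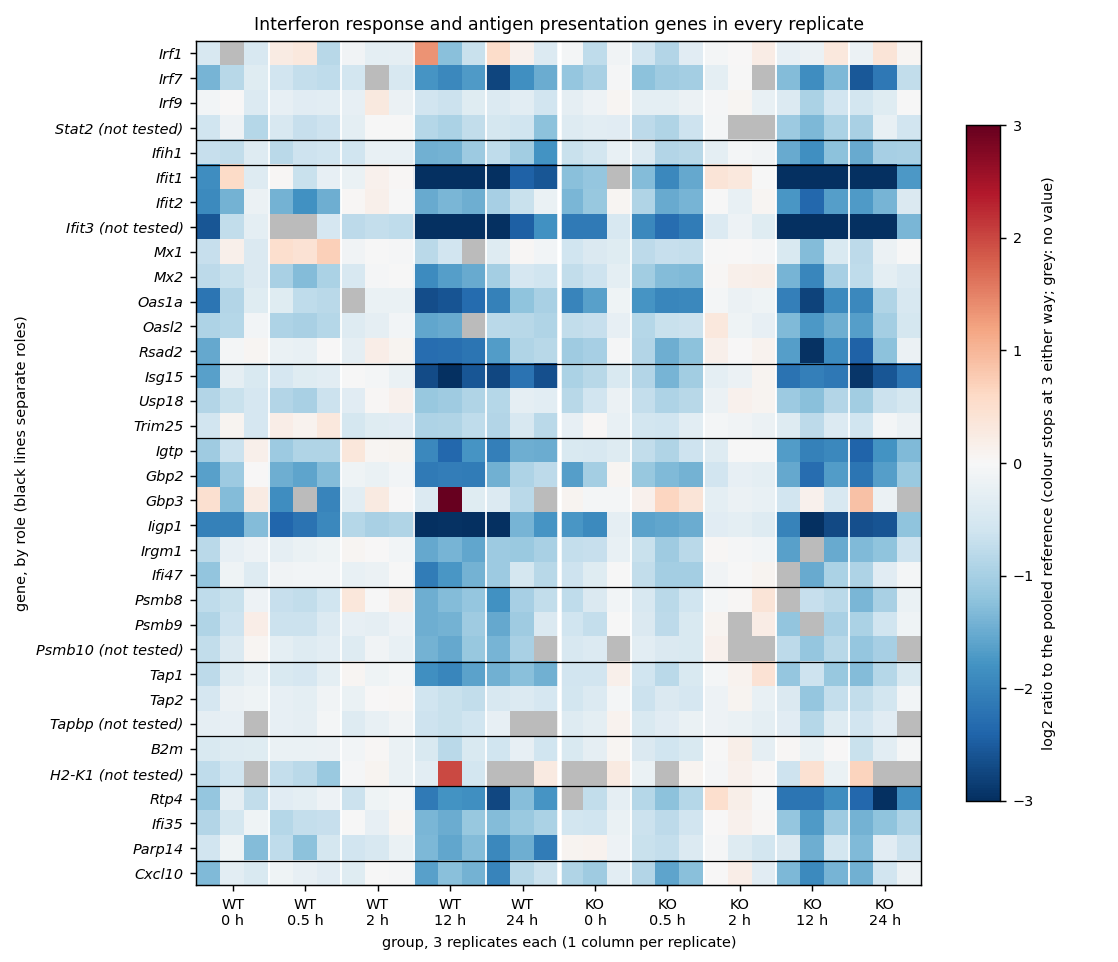
Log2 ratio to the reference for every gene with a probe (rows, by role) in every replicate (columns, 10 groups of 3); colour gives the ratio and grey a missing value. The columns at 12 h are the lowest for most rows in both genotypes, and those at 2 h the highest.

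Among the transcription factors, Irf7, which amplifies type I interferon induction, and Irf9, a DNA-binding factor of the interferon response, fell at 12 h, and Irf1 did not pass the test. Untreated Irf7 ratios were -1.40, -0.83 and -0.36 in WT and -1.16, -0.96 and -0.03 in KO. At 12 h Irf7 read -1.77, -1.92 and -1.69 in WT and -1.30, -1.86 and -1.35 in KO. At 24 h Irf7 read -2.76, -1.85 and -1.49 in WT and -2.53, -2.14 and -0.74 in KO. The lowest Irf7 ratios were at 24 h, but KO 24 h replicate 3 lay among the untreated values, and KO at 12 h overlapped with the untreated WT values. The Irf7 change was -0.86 (SE 0.25, adjusted p = 0.0439) at 12 h and -1.13 (SE 0.25, adjusted p = 0.0052) at 24 h. Irf9 changed by -0.44 (SE 0.11, adjusted p = 0.0165) at 12 h and -0.23 at 24 h, where it did not pass the test (adjusted p = 0.222). Irf1, an interferon-gamma target, read 0.27 at 12 h (adjusted p = 0.697), and its dyes disagreed in WT 12 h replicate 1 (Cy5 4.28, Cy3 -1.60). Stat2, not tested, had a mean of -0.53 ± 0.36 (SD, n = 3) in untreated WT and -0.85 ± 0.11 (SD, n = 3) in WT at 12 h, and -0.34 ± 0.04 (SD, n = 3) and -1.12 ± 0.21 (SD, n = 3) in KO.

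Ifih1, which encodes the double-stranded RNA sensor MDA5, fell by 0.88 at 12 h (SE 0.15, adjusted p = 0.000821) and by 0.64 at 24 h (adjusted p = 0.00673). Its group means went from -0.61 ± 0.19 (SD, n = 3) to -1.32 ± 0.20 (SD, n = 3) in WT and from -0.48 ± 0.24 (SD, n = 3) to -1.54 ± 0.31 (SD, n = 3) in KO. All its replicates at 12 h and at 24 h were below all untreated replicates.

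Of the 7 antiviral effectors tested, 5 fell at 12 h and 1, Ifit1, was still lower at 24 h. Ifit1 encodes a protein that binds viral RNA lacking the host cap methylation. Untreated Ifit1 ratios were -1.87, 0.57 and -0.38 in WT and -1.26 and -1.17 (replicate 3 missing) in KO. At 12 h Ifit1 read -3.35, -3.54 and -3.02 in WT and -3.10, -3.42 and -3.11 in KO. At 24 h Ifit1 read -3.03, -2.43 and -2.57 in WT and -3.29, -5.74 and -1.72 in KO. All Ifit1 values at 12 h were below all untreated ones, and at 24 h only KO replicate 3 overlapped with them, while KO replicate 2 was far below the rest. Ifit1 changed by -2.37 (SE 0.45, adjusted p = 0.00217) at 12 h and -2.25 (SE 0.45, adjusted p = 0.00152) at 24 h. Its neighbour Ifit3, not tested, had means of -1.20 ± 1.20 (SD, n = 3) in untreated WT and -4.09 ± 0.12 (SD, n = 3) at 12 h, and -1.58 ± 0.94 (SD, n = 3) and -3.54 ± 0.32 (SD, n = 3) in KO.

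Rsad2 encodes viperin, an enzyme that makes a chain-terminating ribonucleotide. Untreated Rsad2 ratios were -1.55, -0.07 and 0.05 in WT and -1.06, -0.99 and -0.05 in KO. At 12 h Rsad2 read -2.28, -2.26 and -2.18 in WT and -1.64, -2.97 and -1.88 in KO. At 24 h Rsad2 read -1.67, -0.91 and -0.83 in WT and -2.43, -1.23 and -0.17 in KO. The groups did not overlap at 12 h and did at 24 h, where the KO replicates spread widely. Rsad2 changed by -1.59 (SE 0.30, adjusted p = 0.00218) at 12 h, and at 24 h the difference was -0.60 (SE 0.30, adjusted p = 0.241).

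Oas1a, a synthetase of the second messenger that activates RNase L, went down and came back. Untreated Oas1a ratios were -2.18, -0.88 and -0.37 in WT and -1.98, -1.63 and -0.12 in KO. At 12 h Oas1a read -2.66, -2.59 and -2.30 in WT and -2.05, -2.77 and -1.90 in KO. At 24 h Oas1a read -2.02, -1.21 and -0.97 in WT and -1.94, -0.91 and -0.48 in KO. The 12 h values overlapped with the lowest untreated ones, and the 24 h values lay within the untreated range. Oas1a changed by -1.18 (SE 0.30, adjusted p = 0.0162) at 12 h, and at 24 h the difference from untreated was -0.06 (SE 0.30, adjusted p = 0.943).

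Mx2, a dynamin-like GTPase, and Oasl2, a synthetase-like protein, also fell at 12 h, by 0.98 (SE 0.14, adjusted p = 0.000142) and by 0.93 (SE 0.17, adjusted p = 0.00147). Ifit2 read -0.69 (adjusted p = 0.107) and Mx1 -0.32 (adjusted p = 0.254) at 12 h, and neither passed the test.

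Isg15 is a ubiquitin-like protein that is conjugated to newly made proteins, Trim25 an E3 ligase and Usp18 the protease that removes it. All 3 fell at 12 h, and Isg15 alone was called at 24 h. Untreated Isg15 ratios were -1.63, -0.26 and -0.45 in WT and -0.95, -0.83 and -0.46 in KO. At 12 h Isg15 read -2.70, -3.01 and -2.56 in WT and -2.22, -2.06 and -2.15 in KO. At 24 h Isg15 read -2.74, -2.22 and -2.64 in WT and -2.93, -2.57 and -2.17 in KO. Every replicate at 12 and at 24 h was below every untreated one. Isg15 changed by -1.69 (SE 0.17, adjusted p = 1.01e-05) at 12 h, a 3.22-fold fall, and by -1.78 (SE 0.17, adjusted p = 1.63e-07) at 24 h. Usp18 and Trim25 changed by -0.45 and -0.45 at 12 h (adjusted p = 0.0306 and 0.0151).

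The interferon-induced GTPases act on the membranes of vacuoles that hold intracellular parasites and bacteria. At 12 h 5 of 6 fell. Untreated Igtp ratios were -1.07, -0.65 and 0.15 in WT and -0.46, -0.49 and -0.39 in KO. At 12 h Igtp read -1.95, -2.36 and -1.77 in WT and -1.67, -2.03 and -1.92 in KO. At 24 h Igtp read -2.05, -1.46 and -1.48 in WT and -2.40, -1.79 and -1.33 in KO. Igtp was lower in every treated replicate at 12 and 24 h than in any untreated one. The Igtp change was -1.47 (SE 0.17, adjusted p = 2.92e-05) at 12 h and -1.27 (SE 0.17, adjusted p = 2.19e-05) at 24 h.

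Untreated Iigp1 ratios were -2.02, -2.02 and -1.30 in WT and -1.74, -1.91 and -0.28 in KO. At 12 h Iigp1 read -3.19, -2.98 and -3.12 in WT and -2.01, -3.34 and -2.70 in KO. At 24 h Iigp1 read -3.11, -1.40 and -1.77 in WT and -2.65, -2.60 and -1.20 in KO. Iigp1 at 12 h overlapped with the untreated range through KO replicate 1, and at 24 h both groups were spread widely. The change was -1.34 (SE 0.29, adjusted p = 0.00545) at 12 h, and -0.58 at 24 h did not pass the test (adjusted p = 0.233). Gbp2, Irgm1 and Ifi47 fell at 12 h by 1.08, 1.06 and 1.05 (adjusted p = 0.00768, 3.25e-05 and 0.001), and of these Irgm1 was also called at 24 h (-0.58, adjusted p = 0.00221). Gbp3 read 0.35 at 12 h (adjusted p = 0.719), with dyes that disagreed in WT 12 h replicate 2 (Cy5 -0.96, Cy3 7.37).

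Of the antigen presentation genes tested, 1 of 2 immunoproteasome subunits, 2 of 2 peptide transporters and 0 of 1 class I chains fell at 12 h. Psmb8 and Psmb9 are catalytic subunits of the immunoproteasome, which cuts proteins into peptides suited to class I, and Tap1 and Tap2 form the transporter that carries peptides into the endoplasmic reticulum. Untreated Psmb8 ratios were -0.77, -0.66 and -0.14 in WT and -0.75, -0.43 and -0.08 in KO. At 12 h Psmb8 read -1.46, -1.31 and -1.16 in WT and -0.68 and -0.81 (replicate 1 missing) in KO. At 24 h Psmb8 read -1.83, -1.01 and -0.75 in WT and -1.37, -0.97 and -0.21 in KO. Psmb8 was lowest in WT at 12 h and in replicate 1 at 24 h, and the KO values at both times overlapped with the untreated ones. The Psmb8 difference was -0.55 (SE 0.19, adjusted p = 0.0798) at 12 h, short of the threshold, and -0.55 (SE 0.18, adjusted p = 0.0491) at 24 h. Psmb9 changed by -0.76 (SE 0.20, adjusted p = 0.0198) at 12 h. The third subunit, Psmb10, not tested, had means of -0.37 ± 0.41 (SD, n = 3) in untreated WT and -1.36 ± 0.21 (SD, n = 3) at 12 h, and -0.45 ± 0.05 (SD, n = 2) and -0.93 ± 0.20 (SD, n = 3) in KO.

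Untreated Tap1 ratios were -0.80, -0.38 and -0.23 in WT and -0.58, -0.57 and 0.14 in KO. At 12 h Tap1 read -1.85, -1.96 and -1.62 in WT and -1.16, -0.61 and -1.14 in KO. At 24 h Tap1 read -1.45, -1.25 and -1.45 in WT and -1.31, -0.85 and -0.46 in KO. The WT values at 12 and 24 h were below all untreated ones, while KO 12 h replicate 2 and KO 24 h replicate 3 were not. Averaged over genotypes Tap1 changed by -0.98 (SE 0.15, adjusted p = 0.000228) at 12 h and -0.72 (SE 0.15, adjusted p = 0.0017) at 24 h, and Tap2 changed by -0.41 at 12 h (adjusted p = 0.0329). B2m, the light chain shared by all class I molecules, did not pass the test at 12 h, and the 95% interval of its change was -0.22 to 0.22. Tapbp, the peptide-loading chaperone tapasin, had untested means of -0.27 ± 0.02 (SD, n = 2) in untreated WT and -0.63 ± 0.04 (SD, n = 3) at 12 h, and -0.19 ± 0.26 (SD, n = 3) and -0.53 ± 0.27 (SD, n = 3) in KO. The class I heavy chain H2-K1 had WT 12 h values from -0.55 to 1.98, and its Cy3 value of 6.05 in replicate 2 gave the highest of these.

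Untreated Rtp4 ratios were -1.15, -0.26 and -0.73 in WT and -0.73 and -0.26 (replicate 1 missing) in KO. This gene encodes an interferon-induced chaperone of receptor transport. At 12 h Rtp4 read -2.13, -1.80 and -1.84 in WT and -2.19, -2.20 and -1.86 in KO. At 24 h Rtp4 read -2.72, -1.27 and -1.77 in WT and -2.36, -5.03 and -1.85 in KO. Both late groups lay wholly below the untreated values, and KO 24 h replicate 2 was far lower than any other. Rtp4 changed by -1.40 (SE 0.36, adjusted p = 0.0198) at 12 h and -1.90 (SE 0.36, adjusted p = 0.00105) at 24 h. Ifi35 fell by 0.85 at 12 h (adjusted p = 0.00018) and by 0.67 at 24 h (adjusted p = 0.000658), with no overlap at either time. Cxcl10, a chemokine that draws T cells, changed by -0.76 (SE 0.23, adjusted p = 0.0404) at 12 h and -0.21 at 24 h, where it did not pass (adjusted p = 0.66).

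**Figure D2:**
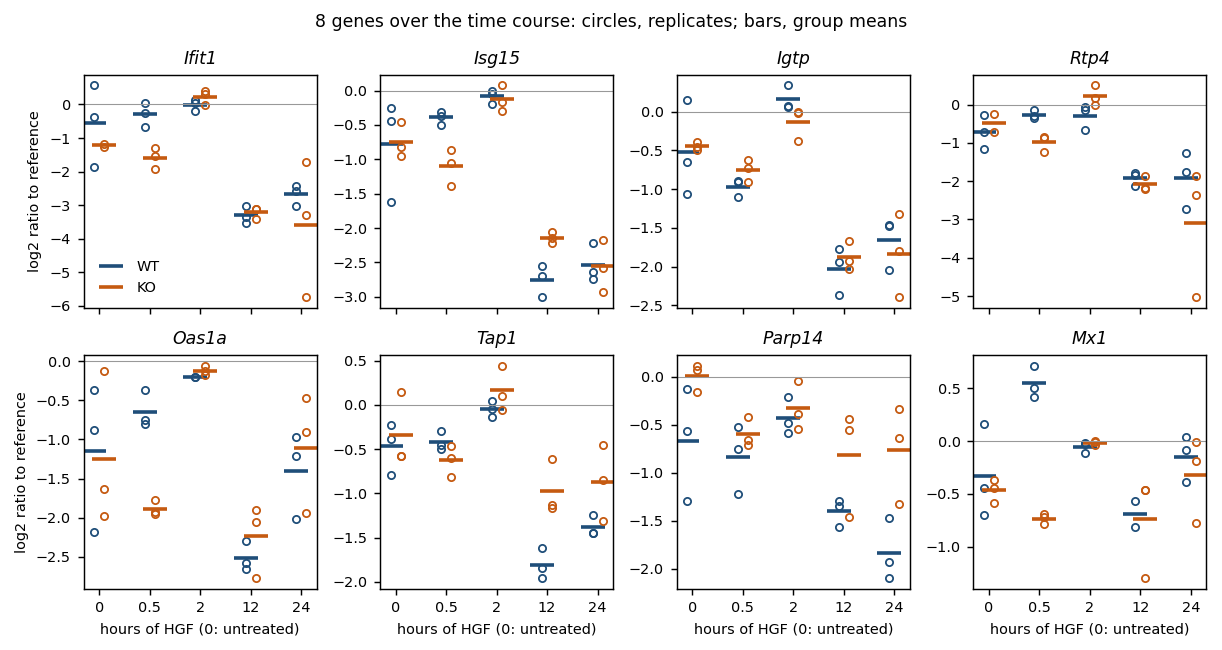
Log2 ratio to the reference against hours of HGF (0 is untreated) for single genes, with a circle per replicate, a bar at each group mean and colours for WT and KO. For Ifit1, Isg15 and Igtp the values at 12 h lie below all untreated ones in both genotypes.

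At 24 h fewer of the genes were lower. With genotypes averaged, 11 of 29 fell and 0 rose, where 7.04% of all probes fell and 3.84% rose, and the median change was -0.37 against -0.02 over all probes. The genes called were Ifit1, Rtp4, Isg15, Igtp, Irf7, Parp14, Tap1, Ifi35, Ifih1, Irgm1 and Psmb8. For 5 of 29 genes all 24 h replicates were below all untreated ones, as for 1.71% of all probes. Without those same 3 replicates, as left out at 12 h, 7 genes were called, and Psmb8 was lost when any one of 7 replicates was left out. Isg15 and Igtp passed in every setting tried other than the turned Cy3 sign.

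A direct comparison of 24 h with 12 h, chosen after the data were seen, called 5 of 29 genes higher at 24 h, where 0.995% of all probes were called higher, and 0 lower, where 2.69% were. These were Oas1a (1.13, adjusted p = 0.037), Mx2 (0.97, adjusted p = 0.000363), Ifi47 (0.87, adjusted p = 0.0111), Irgm1 (0.48, adjusted p = 0.0379) and Usp18 (0.45, adjusted p = 0.0478). Mx2 read -1.88, -1.65 and -1.52 in WT at 12 h and -1.02, -0.50 and -0.59 at 24 h. In KO the Mx2 values were -1.39, -1.96 and -1.01 at 12 h and -0.75, -0.29 and -0.42 at 24 h. Every Mx2 replicate at 24 h but WT replicate 1 was above every replicate at 12 h. The median difference of the 29 genes was 0.26. The count of 5 was 2 without any one of 7 replicates (all of 12 h but KO replicate 3, WT 24 h replicate 3 and KO 24 h replicate 3). It was 3 without KO 12 h replicate 3 or WT 24 h replicate 2. It was 8 without WT 24 h replicate 1 and 9 without KO 24 h replicate 1, where 210 and 203 of 14580 probes were higher. It was 1 on the Cy5 arrays alone, with replicates weighted by group spread, with only the groups compared or within the run, and 0 with the Cy3 sign turned. The setting within the run kept WT 24 h replicate 2, although its Cy3 array lies in another run.

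**Figure D3:**
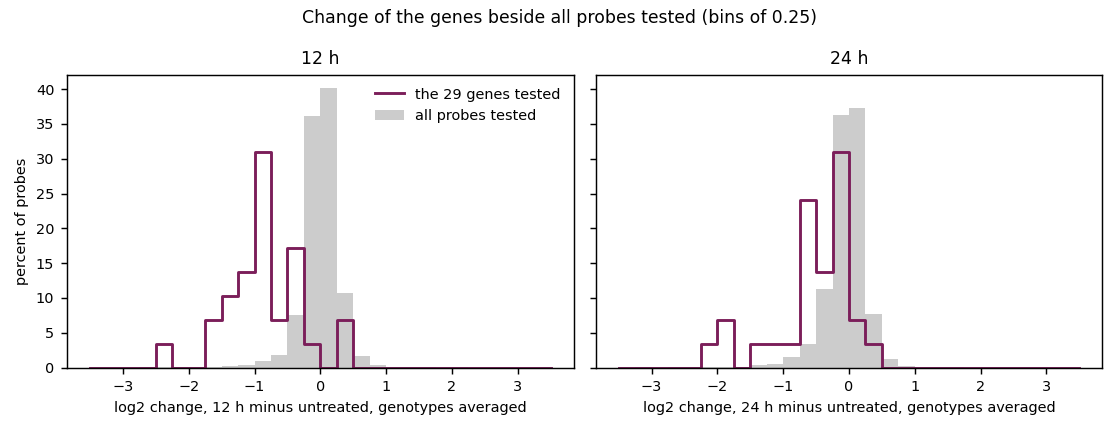
Percent of probes (y axis) by log2 change from untreated with genotypes averaged (x axis, bins of 0.25), at 12 h and 24 h, for the 29 genes and for all 14580 probes tested. The genes centre on -0.86 at 12 h and -0.37 at 24 h, and all probes centre near 0.

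At 0.5 h 0 of 29 genes were called in limma (2 lower at an unadjusted p under 0.05), where 0.0686% of probes were called either way, and the median change was -0.12. At 2 h 1 gene was higher, Usp18, where 0.219% of probes were, and the median change was 0.46. Untreated Usp18 ratios were -0.87, -0.68 and -0.49 in WT and -0.82, -0.57 and -0.18 in KO. At 2 h Usp18 read -0.34, 0.04 and 0.12 in WT and -0.19, 0.14 and 0.08 in KO. Untreated KO replicate 3 fell within the 2 h range. The Usp18 change was 0.58 (SE 0.13, adjusted p = 0.0328), and it no longer passed when any one of 8 replicates was left out. The count at 2 h was 12 without untreated WT replicate 3 and 11 without untreated KO replicate 3, where 240 and 165 of 14580 probes were higher. It was 10 under scale normalization (437 probes) and 13 with replicates weighted by group spread (196). It was 8 without those 3 replicates with unusual arrays (100 of 14541 probes) and 19 without the 2 smaller runs (744 of 14580). It was 0 with the run as a term (3 probes), where the median change was 0.05. Arrays of 0.5 and 2 h lie in another run of array numbers than the untreated arrays, except KO 2 h replicate 3, so time and run cannot be told apart. That replicate and untreated KO replicate 3 share a run, and their median difference over 27 genes was 0.12, from -0.38 to 0.54, with 16 above 0.

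Arrays of 2 h and 0.5 h share a run apart from that replicate, and this comparison, also chosen after the data were seen, called 13 of 29 genes higher at 2 h, where 3.99% of all probes were higher, and 0 lower, where 9.25% were. The median difference was 0.64. Iigp1 at 0.5 h read -2.38, -2.22 and -1.94 in WT and -1.60, -1.55 and -1.49 in KO. At 2 h Iigp1 read -0.86, -0.96 and -0.90 in WT and -0.34, -0.29 and -0.38 in KO. Those Iigp1 groups did not overlap, and the difference was 1.24 (SE 0.29, adjusted p = 0.00602). Ifit2 (1.42), Gbp2 (1.12), Mx2 (1.12) and Oas1a (1.10) rose by more than 1 as well. Igtp, Usp18, Psmb8, Ifi35, Oasl2, Isg15, Tap1 and Irgm1 rose by 0.51 to 0.87. The count of 13 was 10 on the Cy3 arrays alone, where 1202 of 16647 probes were higher. It was 25 with only the groups compared (1953 of 14580 probes), with replicates weighted by group spread (2182) or within the run (1801). With the Cy3 sign turned, 1 was higher and 5 lower, as were 1777 and 2862 probes. The highest of the 10 group means was that of KO at 2 h for 16 genes and WT at 2 h for 8, and the lowest was WT at 12 h for 15 and KO at 12 h for 8.

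The second question was whether the decline needed Met. In WT alone, 13 of 29 genes fell at 12 h, where 3.16% of probes fell, and the median change was -0.88. In KO alone, 5 fell (Ifih1, Isg15, Igtp, Irgm1 and Ifi35), where 0.11% of probes fell, and the median was -0.87. Within the largest run of arrays the medians at 12 h were -0.64 in WT and -0.57 in KO. At 24 h 8 genes fell in WT (4.76% of probes; median -0.42) and 5 in KO (Ifit1, Isg15, Igtp, Rtp4 and Ifi35; 2.94% of probes; median -0.43). The WT count at 12 h was 8 without untreated replicate 2 or 3 or 12 h replicate 1 or 2. The KO count at 12 h was 0 without untreated replicate 1 or 3, 1 without 12 h replicate 1 or 2 and 3 without untreated replicate 2. At 24 h the WT count was 3 without untreated replicate 2, 4 without untreated replicate 3 and 5 without 24 h replicate 1 or 2, and the KO count was 2 without untreated replicate 3, 3 without untreated replicate 1 or 24 h replicate 1, and 9 without 24 h replicate 3. Other settings moved these counts too. With the share of all probes that fell in brackets, the WT count at 12 h was 6 under scale normalization (0.96%) and 5 on the Cy5 arrays alone (1.44%). It was 4 with only the groups compared in the fit (0.453%) and 4 within the largest run of arrays (0.947%). With the sign of the Cy5 array of untreated WT replicate 3 turned, it was 19 (4.23%). The KO count at 12 h was 13 under scale normalization (1.28%), 10 with replicates weighted by group spread (0.686%) and 3 with only the groups compared (0.096%). The count was 1 with that sign turned (0.0549%), and 0 on the Cy3 arrays alone (0.018%) or within the run (0.0137%). Without untreated WT replicates 2 and 3 and KO 24 h replicate 2, it was 0 in WT, which then rested on 1 untreated replicate, and 9 in KO at 12 h, and 1 and 6 at 24 h. At 24 h the counts over the settings ran from 0 to 13 in WT and from 0 to 9 in KO, both being 0 with only the groups compared and with the Cy3 sign turned. The WT and KO changes share no samples: both were below 0 for 26 of 29 genes at 12 h and for 21 at 24 h, and the WT change was the lower for 16 and 15 of the 29. Across the 29 genes the changes of the genotypes correlated at r = 0.81 at 12 h (0.46 over all probes) and at r = 0.80 at 24 h (0.31 over all probes). Genes on the same arrays are not independent, so these correlations are descriptions.

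**Figure D4:**
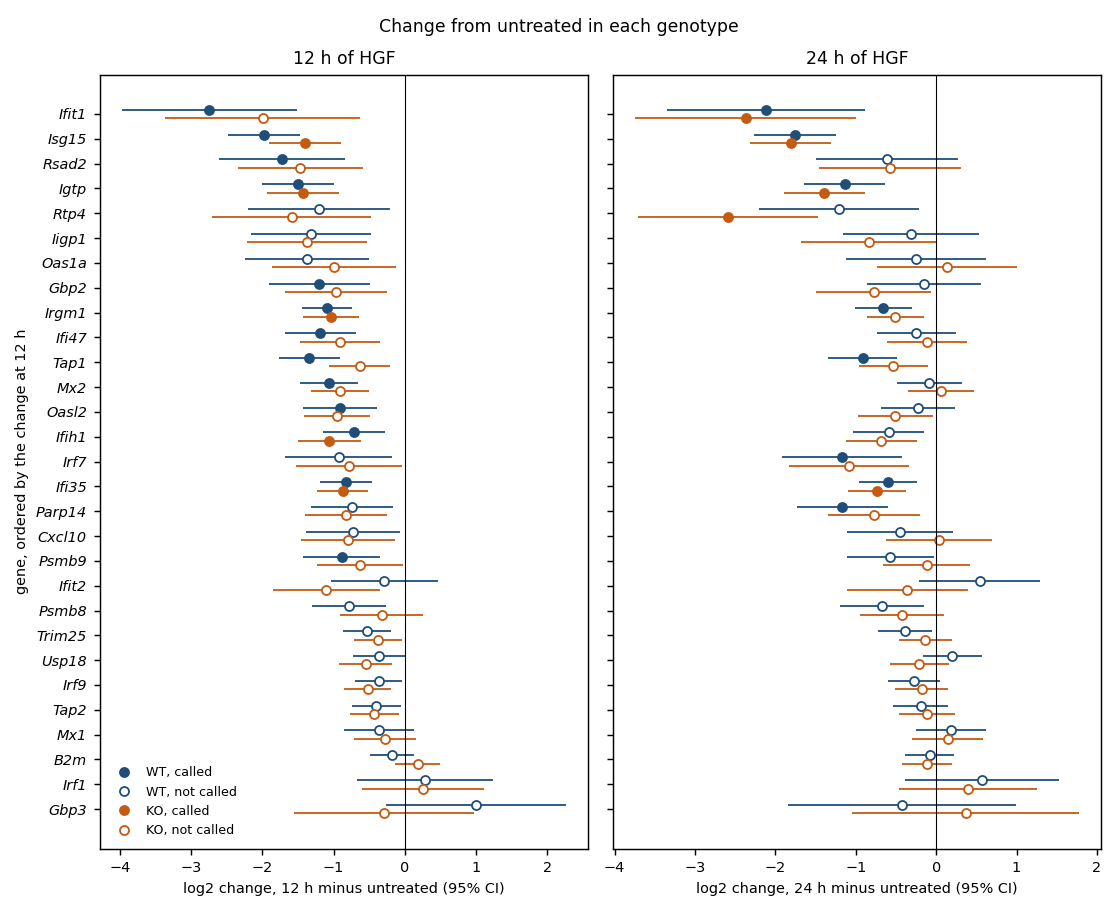
Log2 change from untreated with its 95% interval (x axis) for each of the 29 genes (y axis) in WT and KO, at 12 h and 24 h of HGF. The intervals of WT and KO lie on the same side of 0 or across it for most genes, with medians of -0.88 and -0.87 at 12 h.

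The test of the difference itself, the KO change minus the WT change in limma, called 0 of 29 genes at each time (2 at 0.5 h without untreated WT replicate 2, and 4 lower at 0.5 h without the 3 replicates with unusual arrays). The share of all probes called either way was 0.00686% at 0.5 h, 0.0274% at 2 h, 0.0754% at 12 h and 0.727% at 24 h, and 8, 0, 1 and 0 genes had an unadjusted p under 0.05. At 0.5 h the median difference over the genes was -0.34, against -0.05 over all probes. The WT and KO changes at 0.5 h had opposite signs for 16 of 29 genes (r = -0.56, against -0.01 over all probes). The median difference was 0.08 at 12 h and 0.03 at 24 h, and its sign changed with the setting. At 12 h it was -0.34 under scale normalization, -0.36 on the Cy5 and 0.53 on the Cy3 arrays, and without those 3 replicates with unusual arrays it was -0.35 at 12 h and -0.32 at 24 h. These 95% intervals, which are not adjusted over probes, were wide, with a median reach of 0.746 at 12 h and 0.715 at 24 h to either side. Differences of that size between genotypes, and larger ones, could go uncalled here. The lowest uncalled differences of the genes were -1.29 at 12 h and -1.38 at 24 h. The smallest adjusted p-values were those of Tap1 at 12 h (0.71, adjusted p = 0.70) and Rtp4 at 24 h (-1.38, adjusted p = 0.446), the latter with KO 24 h replicate 2 at -5.03. A test over all 4 times together called Trim25 alone of the 29 (adjusted p = 0.0273), where it called 1.58% of probes.

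Trim25 at 0.5 h read 0.19, 0.11 and 0.31 in WT and -0.54, -0.60 and -0.33 in KO. Untreated Trim25 ratios were -0.58, 0.08 and -0.50 in WT and -0.24, 0.03 and -0.22 in KO. The WT values at 0.5 h were the highest of the gene, and the KO values were below all of them. KO minus WT at 0.5 h was -0.69 (SE 0.16, adjusted p = 0.0158). The dyes disagreed, with a difference of 0.02 on the Cy5 arrays and -1.40 on the Cy3 arrays.

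KO and WT were also compared at single times. At 0.5 h 3 of 29 were lower in KO (Mx1, Trim25 and Irgm1), where 2.3% of all probes were lower. Mx1, the nuclear dynamin-like GTPase that restricts influenza virus in mice, read 0.50, 0.42 and 0.72 in WT and -0.79, -0.69 and -0.71 in KO. The groups stood far apart, with a difference of -1.28 (SE 0.21, adjusted p = 0.00157). It was -0.40 on the Cy5 and -2.16 on the Cy3 arrays. Irgm1 differed by -0.65 (adjusted p = 0.0316), with 0.14 on the Cy5 and -1.44 on the Cy3 arrays, so the dyes disagreed in sign for Irgm1 and Trim25. The count of 3 fell to 1 without WT 0.5 h replicate 3 or KO 0.5 h replicate 2. It was 0 on the Cy5 arrays alone (of 31 tested) and 10 on the Cy3 arrays alone (6.31% of probes), 1 under the stricter filter, and 5 were higher and 0 lower with the Cy3 sign turned. It was 9 to 12 lower, with 1 or 2 higher, when the run of arrays was a term, replicates were weighted by group spread, only the groups compared were fitted or only arrays of 1 run were used, where 8.16% to 11.6% of all probes were lower. It was 6 without the 2 smaller runs and 8, with 1 higher, without those 3 replicates with unusual arrays. So how many of the genes differed at 0.5 h was not settled. Of 11 lymphocyte and NK cell markers at 0.5 h, Nkg7 (1.20, adjusted p = 0.0439, limma) was higher in KO. Of 10 hepatocyte markers Cps1 (1.18, adjusted p = 0.00464) and Ass1 (0.75, adjusted p = 0.00365) were higher. No other marker of liver cells was called at that time. Without a call, Apoa1 (-0.72), Ttr (-0.40), Serpina1a (-0.165), Alb (-0.11) and Hnf4a (-0.04) of the hepatocyte list read below 0. Tdo2 (0.54), Hpd (0.44) and Cyp2e1 (0.28) read above 0. The part of these markers in the differences was not tested. In limma 0 of 29 were called in untreated cultures (0.0617% of probes either way; 1 at an unadjusted p under 0.05) and 0 at 2 h (0.432% of probes; 0 at an unadjusted p under 0.05).

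At 12 h 1 gene, Tap1, was higher in KO, where 1.29% of probes were. The KO minus WT difference of Tap1 at 12 h was 0.84 (SE 0.21, adjusted p = 0.0247), with every KO replicate above every WT one, 0.63 on the Cy5 and 1.04 on the Cy3 arrays. At 24 h 1 gene, Parp14, was higher in KO, where 2.41% of probes were. Parp14 is an interferon-induced ADP-ribosyltransferase. Its WT values were -0.57, -0.13 and -1.30 untreated, -1.34, -1.57 and -1.30 at 12 h and -1.93, -1.47 and -2.09 at 24 h. In KO Parp14 read 0.07, 0.12 and -0.16 untreated, -0.44, -1.46 and -0.55 at 12 h and -1.33, -0.34 and -0.64 at 24 h. All KO replicates at 24 h were above all WT ones, by 1.06 on average (SE 0.28, adjusted p = 0.0244). The Tap1 call was lost without WT 12 h replicate 1 or 2 or KO 12 h replicate 2. The Parp14 call was lost without WT 24 h replicate 1 or 3 or KO 24 h replicate 2 or 3. The Parp14 difference was 0.63 on the Cy5 and 1.49 on the Cy3 arrays at 24 h and passed on neither dye alone. Without KO 24 h replicate 1 there were 3 genes higher in KO at 24 h, and without KO 24 h replicate 3 there were 0 higher and 2 lower. Markers of liver cells differed at the same times. Of 10 hepatocyte markers Ass1 was higher in KO at 12 h (0.67, adjusted p = 0.00529, limma). Without a call, Apoa1 (-0.22), Serpina1a (-0.07), Alb (-0.02) and Hpd (-0.01) of that list read below 0 at 12 h, and the rest above 0. Of 7 endothelial markers Dnase1l3 was lower in KO at 12 h (-1.32, adjusted p = 0.00166) and at 24 h (-0.89, adjusted p = 0.0236). Of 4 dendritic cell markers Zbtb46 was lower at 12 h (-1.18, adjusted p = 0.00943), and of 10 macrophage markers Mpeg1 was higher at 24 h (1.23, adjusted p = 0.00135). Without a call, Aif1 (-1.93), C1qc (-0.42), C1qa (-0.18) and Cd5l (-0.03) of the macrophage list read below 0 at 24 h. Clec4f (0.23), Cd14 (0.22), Msr1 (0.20), Marco (0.14) and Lyz2 (0.03) read above 0. Their part in the Tap1 and Parp14 differences was not tested.

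Averaged over the 5 times, 2 of 29 genes were higher and 1 lower in KO, where 5.01% and 5.1% of all probes were, and the median difference was 0.02 with a range from -0.50 to 0.53. Parp14 was higher by 0.53 (SE 0.12, adjusted p = 0.00573), with 0.38 on the Cy5 and 0.69 on the Cy3 arrays, and the call was lost on the Cy5 arrays alone. Tap1 was higher by 0.30 (SE 0.09, adjusted p = 0.0427), with 0.51 on the Cy5 and 0.08 on the Cy3 arrays. Mx1 was lower by 0.32 (SE 0.10, adjusted p = 0.0342), with 0.09 on the Cy5 and -0.74 on the Cy3 arrays. At single times Mx1 was called at 0.5 h alone, and that difference is part of this average. The Tap1 call was lost when any one of 15 replicates was left out and the Mx1 call with any one of 12. The count of 3 fell to 1 without WT 2 h replicate 2 or 3, KO 0.5 h replicate 1, KO 2 h replicate 3 or KO 12 h replicate 2. Over the 5 times Mpeg1, of 10 macrophage markers, was higher in KO by 0.36 (adjusted p = 0.0231, limma). Clec4g and Dnase1l3, of 7 endothelial markers, were lower (-0.32 and -0.48). Of 10 hepatocyte markers, Cps1 and Ass1 were higher (0.49 and 0.54), and the part of these genes was not tested. Strain differs with genotype in all of these comparisons, so strain and the Met deletion cannot be told apart.

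**Figure D5:**
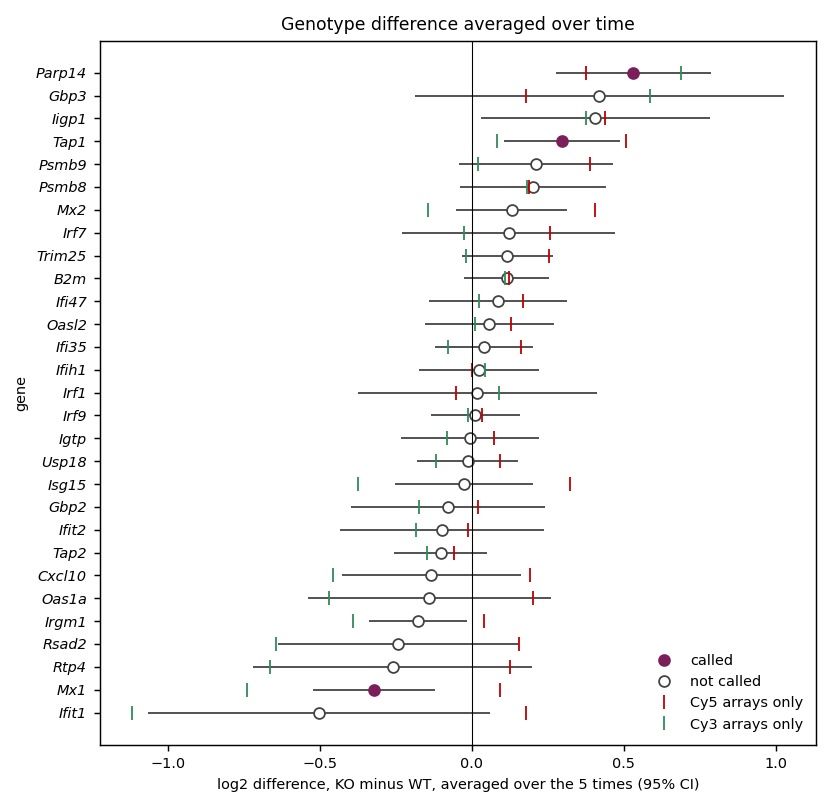
KO minus WT difference in log2 ratio, averaged over the 5 times, with its 95% interval (x axis) for each of the 29 genes (y axis); filled circles mark the calls, and the tick marks give the difference on the Cy5 and on the Cy3 arrays alone. Parp14 and Tap1 lie above 0, Mx1 lies below 0 and the others were not called.

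Other genes of the pathway, from further lists, moved unevenly. These lists too were chosen with earlier results of these data known, so they are not an independent check. Of 33 other interferon-stimulated genes tested, 24 fell and 1 rose at 12 h (median -0.63), and 8 fell and 1 rose at 24 h. Among them Tgtp1 (-2.11), Gbp4 (-1.59), Irgm2 (-1.53), Cmpk2 (-1.23) and Cxcl9 (-1.08) had the largest falls at 12 h, and Gbp4 (-2.34) at 24 h. The one that rose, Ifi30 (0.86 at 12 h and 0.71 at 24 h), encodes a lysosomal thiol reductase. Of 8 genes of RNA and DNA sensing, 3 fell at 12 h, Dhx58 (-1.36), Zbp1 (-0.95) and Ikbke (-0.70), and 4 at 24 h, with Irf3 (-0.70) added.

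Of 13 interferon ligands, receptors and signalling genes tested in limma, among them Ifnar2 (-0.12), Ifngr1 (-0.08), Jak1 (0.27) and Tyk2 (-0.05), 0 were called at 12 h and 0 at 24 h, and 3 and 2 had an unadjusted p under 0.05. Of 13 other genes of class I presentation, 3 fell at 12 h: the proteasome activator Psme1 (-0.50), the peptide trimmer Erap1 (-0.36) and H2-M3 (-0.37). H2-M3 was the one called at 24 h (-0.58). Of 8 class II genes, H2-Eb1 (-0.59) and H2-Ob (-0.58) fell at 12 h, and the same 2 at 24 h. The constitutive proteasome subunits Psmb5 (0.22) and Psmb6 (-0.09), which the immunoproteasome subunits replace, were not called in limma at 12 or 24 h, and 0 had an unadjusted p under 0.05. By genotype over all times, beside 5.01% of probes higher and 5.1% lower in KO, 1 of the 13 signalling genes was higher, the interferon-gamma receptor chain Ifngr1, by 0.51 (SE 0.08, adjusted p = 0.000161). Of the 33 other interferon-stimulated genes 2 were higher, Gbp4 by 0.58 (SE 0.15, adjusted p = 0.0126) and Ube2l6 by 0.26 (SE 0.08, adjusted p = 0.046). Of the 8 sensing genes Irf5 differed by -0.20 (SE 0.05, adjusted p = 0.0109), and of the 13 other class I genes Pdia3 differed by -0.79 (SE 0.24, adjusted p = 0.0373), both lower in KO, and no other gene of these lists was called.

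Markers of other liver cells are given because such cells also express these genes. At 12 h 2 of 10 Kupffer cell and macrophage markers fell, Mpeg1 (-0.82) and Cd14 (-0.69), and the median over the list was -0.03. The median over that list ranged from -0.24 to 0.04 in untreated WT replicates and from -0.25 to -0.10 at 12 h, and from -0.10 to -0.06 and from -0.20 to -0.11 in KO. At 24 h 3 of 10 were lower, with Marco added, and the list's median change was -0.47. Of 7 endothelial markers 2 fell at 12 h, Emcn (-1.19) and Fcgr2b (-0.41), and 2 at 24 h, Lyve1 (-0.38) and Fcgr2b (-0.65). Of 11 lymphocyte and NK cell markers 0 fell at 12 h and 1, Cd79b (-0.81), at 24 h, and of 4 dendritic cell markers 0 were called at either time in limma, each list with 2 at an unadjusted p under 0.05 at 12 h. Hepatocyte markers fell as well, 5 of 10 at 12 h, with Cyp2e1 (-1.41) and Cps1 (-1.32) lowest, and 6 of 10 at 24 h. Ratios to a reference do not show whether a marker is absent, so the labelled cell type could not be checked by presence. The part of these markers in the decline was not tested.

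The promoter motifs shown above were set against the change at 12 h. Among tested genes of the list with a promoter entry, 8 of 10 with an ISRE-like match fell (median change -1.13), and 9 of 12 without one (median -0.80). Outside the list, 13 of 233 genes with a match fell (5.58%), against 351 of 7711 without one (4.55%). At 24 h 4 of 10 genes of the list with an ISRE-like match fell and 5 of 12 without one, and the shares outside the list were 9.87% and 6.72%. For the GAS-like motif, 2 of 5 genes of the list with a match fell at 12 h and 15 of 17 without one, and outside the list 7.01% and 4.38% fell. At 24 h 2 of 5 with a GAS-like match fell and 7 of 17 without one, and outside the list 8.01% and 6.71% fell. These are counts of letters in one window, and none of these differences was tested.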

How the data were processed

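The 60 arrays hold 30 replicates (5 times, 2 genotypes, 3 replicates), each in both dye orientations against a pooled reference. The authors deposited log2 ratios, whose normalization the sources used here do not give. The labels' protocols give Trizol extraction. Of 21997 probes, 16076 carry 1 gene symbol in the platform annotation, 288 several and 5633 none. Symbols were updated through RefSeq. Of the values 6.01% are missing, and the probe filter kept 14580 probes with at least 2 of 3 replicates in each group.

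After subtraction of its own median from every array, both dyes were averaged per replicate. Means of the 10 groups were fitted with limma 3.58.1 in R 4.3.3 (residual df 20), and two-sided moderated tests were adjusted by Benjamini-Hochberg over all probes tested, with calls at an adjusted p under 0.05. All adjusted p-values of these genes come from that fit. A change is a difference of mean log2 ratios. The script was tested on simulated data. Values in every replicate are printed for up to 12 genes by a rule on size of change, genotype difference and role group, and those of Trim25, Usp18 and Mx2 were added after their values were seen. The genes and lists were chosen with earlier results of these data known. The labels do not say whether a replicate number marks the same mouse at different times, and the samples were treated as unpaired. Of 60 same-number pairs, 10 correlated above 0.1. This cannot decide the pairing, since these are deviations from means of 3 replicates. Other normalizations, filters, dye choices, array runs as a term or a subset, and each replicate left out were tried as alternatives. Promoter sequences are from RefSeq (GRCm38.p6).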

Additional observations from a re-analysis of the deposited data

How the results depend on the processing

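Counts of lower genes were 23 at 12 h and 11 at 24 h. The count at 12 h was 15 on the Cy5 arrays alone, 15 under the stricter filter (of 17 tested), 9 within the largest run of arrays, 11 without untreated WT replicates 2 and 3 and KO 24 h replicate 2 (an alternative chosen after seeing the data), and 15 to 24 with single replicates left out. At 24 h the count was 5 on the Cy3 arrays alone, 6 under the stricter filter, 4 with only the groups compared in the fit, 7 without those 3 replicates and 10 to 13 with single replicates left out. The stricter filter tests fewer genes and the others use fewer samples. The medians ranged from -0.94 to -0.77 at 12 h and from -0.50 to -0.28 at 24 h over single replicates left out. Other settings moved the median at 12 h to -0.61 on the Cy5 and -1.02 on the Cy3 arrays. It was -0.69 within the largest run and -0.67 without those 3 replicates. At 24 h the median was -0.18 under scale normalization, -0.46 on the Cy5 and -0.38 on the Cy3 arrays. The genotype count of 3 became 5 under scale normalization and 1 to 4 with single replicates left out, and its median ran from 0.00 to 0.05. The median difference in change at 12 h was -0.34 under scale normalization, -0.36 on the Cy5 and 0.53 on the Cy3 arrays, -0.35 without those 3 replicates and -0.06 to 0.27 with single replicates left out. At 24 h it was -0.32 without those 3 replicates and -0.18 to 0.22 with single replicates left out. The cause of these shifts was not tested.

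With a replicate block (correlation -0.00231) the counts were 23, 11 and 3, so the block changed none of the 3. Of the 30 replicates, 10 were closest to their own number, which does not show whether a number marks the same mouse.

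On the Cy5 arrays alone, the KO minus WT difference at 0.5 h was 0.14 for Irgm1 and 0.017 for Trim25, and that over all times was 0.0915 for Mx1. Turning the sign of all Cy3 arrays subtracts the dyes, so by construction it removes what they share. It gave 0 lower genes at 12 h (median 0.26) and at 24 h (median 0.0175), 1 genotype call and a median difference in change of -0.46 at 12 h. At 12 h it gave Irgm1 0.35, Igtp 0.36, Tap2 0.24, Mx2 0.0907, Ifih1 0.14, Gbp2 0.30, Parp14 0.0178, Ifi35 0.26, Irf9 0.13, Irf7 0.38, Psmb9 0.15, Usp18 0.22, Rsad2 0.42, Isg15 0.48, Ifit1 0.49, Oasl2 0.0905, Cxcl10 0.25, Oas1a 0.42, Iigp1 0.32, Ifi47 0.48, Trim25 0.27 and Rtp4 0.32. At 24 h it gave Irgm1 0.12, Irf7 0.20, Isg15 0.28, Ifit1 0.62 and Rtp4 0.45, and at 2 h Usp18 -0.0925. For 24 h against 12 h it gave Irgm1 -0.23, Mx2 -0.20, Usp18 -0.37, Oas1a -0.52 and Ifi47 -0.39, and for 2 h against 0.5 h Igtp -0.32, Tap1 -0.089, Mx2 -0.0608, Gbp2 -0.33, Ifi35 -0.29, Usp18 -0.58, Psmb8 -0.53, Ifit2 -0.37, Oasl2 -0.18 and Iigp1 -0.27. KO minus WT became Irgm1 0.79, Mx1 0.88 and Trim25 0.71 at 0.5 h, Tap1 -0.20 at 12 h, Parp14 -0.43 at 24 h, and Parp14 -0.16 and Mx1 0.41 over all times.

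The number of arrays limits the precision.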
